A study of Arabidopsis thaliana with 12 samples.

Results

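Tubulin genes encode the alpha and beta subunits that pair into dimers and polymerise into microtubules. In plants, microtubules form the mitotic spindle, build the cell plate during division, and lie beneath the plasma membrane, where they guide the deposition of cellulose. Arabidopsis carries a small family of alpha-tubulin (TUA) and beta-tubulin (TUB) genes, which are used to different extents in different organs. The genes described here are those whose symbol in the probe annotation is TUA or TUB followed by digits only, each read from its one-gene probe set (a group of array probes assigned to a single gene) with the highest mean over the arrays. This gave 7 tubulin genes of the 13356 genes with a one-gene probe set. They are the alpha-tubulin genes TUA1 (AT1G64740) and TUA6 (AT4G14960) and the beta-tubulin genes TUB1 (AT1G75780), TUB5 (AT1G20010), TUB6 (AT5G12250), TUB7 (AT2G29550) and TUB9 (AT4G20890). The reference gene table names 15 TUA and TUB genes. Of the other 8, TUA3 and TUA5 share 1 probe set, which cannot be assigned to either, and 6 are not listed in the probe annotation and were not analysed here. Each of the 7 has 1 probe set, none of a type that the array design marks as cross-hybridizing, but how far close relatives within the family contribute to a signal was not tested.

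The series asks how a mutation in XRN3, a nuclear exoribonuclease that degrades the RNA left on the polymerase after a transcript is cleaved, alters the expression of protein-coding genes. Total RNA from whole Arabidopsis thaliana seedlings, grown on MS plates in long days and harvested at 14 days, was measured on 12 Affymetrix arrays. The groups are xrn3-8 seedlings 60 min after 150 mg/l cordycepin, untreated xrn3-8 seedlings (0 min), Col-0 wild-type seedlings 60 min after 150 mg/l cordycepin, and untreated Col-0 seedlings (0 min), with 3 biological replicates each. Cordycepin is an adenosine analogue that ends RNA chains and so inhibits transcription. The mutant is represented by a single allele, and whether it removes XRN3 was not checked here, because no named probe set reports XRN3. No mock-treated seedlings at 60 min are listed, so cordycepin cannot be told apart from 60 min of time and handling. Because RNA came from whole seedlings, fewer cells of a type and less RNA per cell cannot be told apart.

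All values are log2 signals as the authors deposited them, so a difference of 1 is a doubling. They are relative to the other probe sets of an array, and signals of different genes are not compared with each other, since probe sets differ in their response. Array medians were 4.63 to 4.87 and lower quartiles 2.98 to 3.10, and arrays of 1 group correlated at 0.995 to 0.998 over all probe sets. Array controls differed between the groups. The Bacillus subtilis and hybridization controls, given with the scalings below, were higher at 60 min than at 0 min in both genotypes. The probe set for 25S ribosomal RNA read 7.69, 8.77 and 9.16 in xrn3-8 after cordycepin, against 5.59 to 6.35 on the other 9 arrays, and its part in the results below was not tested. The difference between 3′ and 5′ probe sets, a measure of RNA integrity, ran from 0.86 to 1.15 for actin and from -0.27 to 0.03 for GAPDH over the 12 arrays. Of the green tissue markers, 2 of 10 were measured, RCA at 12.73 to 13.08 and LHCB4.2 at 10.43 to 12.02. Of 8 root markers, 2 were measured, PYK10 at 10.73 to 11.43 and EXPA7 at 3.12 to 3.80. Of 7 pollen markers, 2 were measured. AGL104 lay at 2.28 to 2.76, below the lower quartile of the arrays, and AGL65 at 4.27 to 4.92. None of 8 markers of dividing cells was measured.

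The alpha-tubulin gene TUA6 gave 11.04, 11.01 and 11.18 in xrn3-8 after cordycepin, 10.81, 10.73 and 10.70 in xrn3-8 before it, 10.73, 10.74 and 10.73 in Col-0 after it, and 10.19, 10.21 and 10.20 in Col-0 before it. The arrays of xrn3-8 after cordycepin stood above all others and those of untreated Col-0 below all others, while untreated xrn3-8 and treated Col-0 overlapped. TUA1, an alpha-tubulin gene known mainly from pollen, gave 8.29, 8.19 and 7.97 in xrn3-8 after cordycepin, 7.65, 7.64 and 7.73 in xrn3-8 before it, 8.18, 7.95 and 8.02 in Col-0 after it, and 7.50, 7.62 and 7.34 in Col-0 before it. Here the order followed the time, with both treated groups above both untreated ones and the treated groups overlapping each other.

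Among the beta-tubulin genes, TUB5 gave 9.49, 9.37 and 9.42 in xrn3-8 after cordycepin, 9.31, 9.13 and 9.22 in xrn3-8 before it, 9.15, 9.05 and 8.97 in Col-0 after it, and 8.82, 8.91 and 8.82 in Col-0 before it. Its groups stood in the same order as those of TUA6, with the same pair of groups overlapping in the middle. TUB6, known for lower transcript levels in the cold, gave 9.58, 9.60 and 9.71 in xrn3-8 after cordycepin, 9.24, 9.16 and 9.27 in xrn3-8 before it, 9.21, 9.32 and 9.20 in Col-0 after it, and 9.10, 9.12 and 9.14 in Col-0 before it. The lowest array of xrn3-8 after cordycepin lay above the highest of the other 9, the middle groups overlapped, and untreated Col-0 lay just below them.

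TUB7 and TUB9 ran the other way between the genotypes. TUB7 gave 8.71, 8.72 and 8.82 in xrn3-8 after cordycepin, 8.35, 8.34 and 8.50 in xrn3-8 before it, 9.02, 8.99 and 8.98 in Col-0 after it, and 8.60, 8.72 and 8.56 in Col-0 before it. TUB9, a beta-tubulin gene known from pollen, gave 9.78, 9.74 and 9.50 in xrn3-8 after cordycepin, 9.18, 9.13 and 9.25 in xrn3-8 before it, 10.16, 10.07 and 9.91 in Col-0 after it, and 9.50, 9.49 and 9.36 in Col-0 before it. For both genes, treated Col-0 was the highest group and untreated xrn3-8 the lowest, with treated xrn3-8 and untreated Col-0 next to each other and touching at 8.72 for TUB7 and at 9.50 for TUB9. TUB1, a beta-tubulin gene known from roots and for lower levels in the light, gave 6.12, 6.18 and 6.20 in xrn3-8 after cordycepin, 5.73, 5.88 and 5.55 in xrn3-8 before it, 6.36, 6.21 and 5.97 in Col-0 after it, and 5.66, 5.53 and 5.47 in Col-0 before it. Its genotypes overlapped at both times. The distance between the highest and the lowest group mean was 0.51 to 0.88 over the 7 genes, the least for TUB6 and the most for TUA6.

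**Figure D1:**
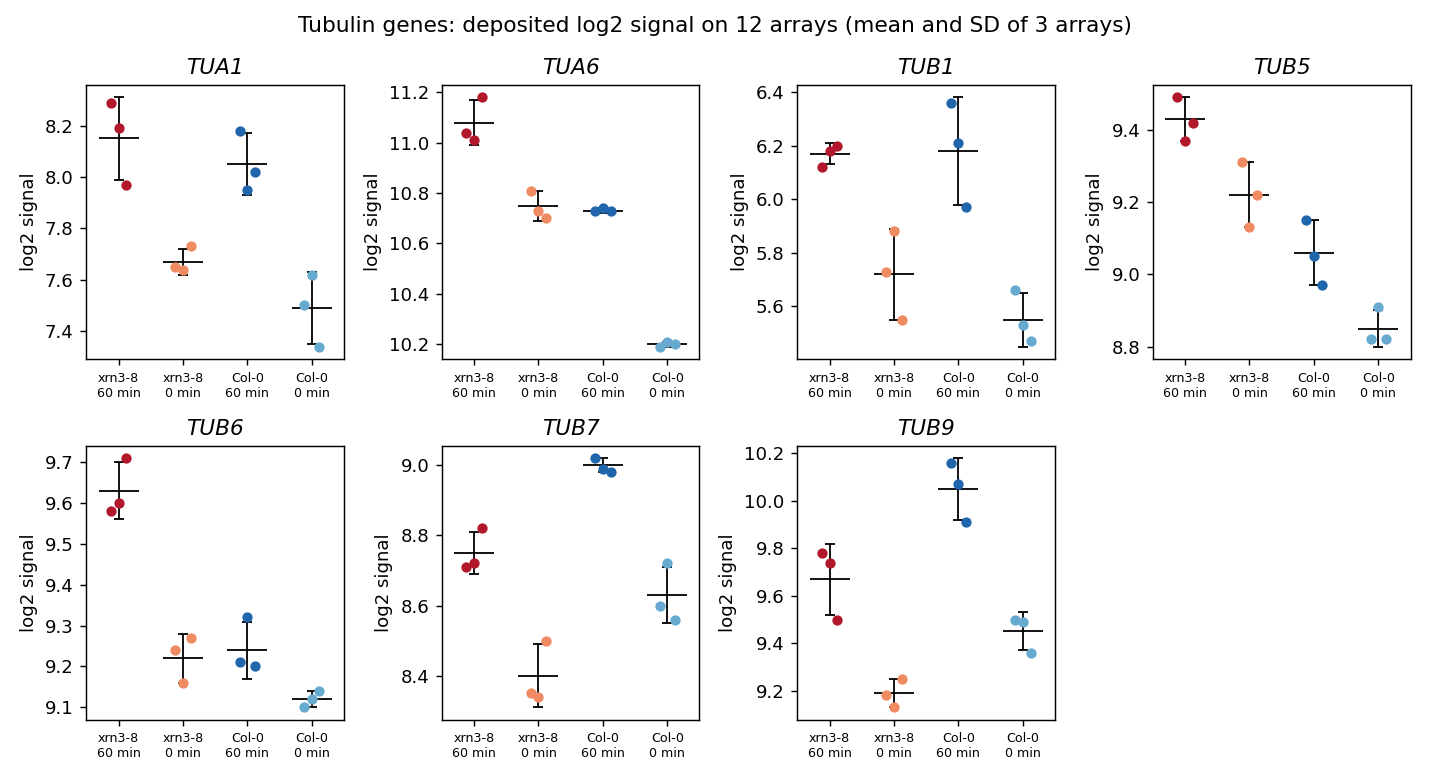
Deposited log2 signal (vertical axis, own range for each gene) of the 7 tubulin genes in the 4 groups. Points are arrays, the long bar is the mean and the whiskers are 1 SD of 3 arrays; TUA6 and TUB5 lie higher and TUB7 and TUB9 lower in xrn3-8 than in Col-0 at both times.

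The first comparison set xrn3-8 against Col-0 before cordycepin. TUA6 was 1.46-fold higher in xrn3-8, with means of 10.75 ± 0.06 in xrn3-8 and 10.20 ± 0.01 in Col-0 (SD, n = 3 each), a log2 difference of 0.55 ± 0.07 (SE) with a limma Benjamini-Hochberg adjusted p of 2.97e-05. TUB5 was 1.29-fold higher, at 0.37 ± 0.08 with an adjusted p of 0.00186 in the same limma fit. TUB7 was lower by a log2 difference of -0.23 ± 0.08 and TUB9 by -0.26 ± 0.09, with limma adjusted p-values of 0.0332 and 0.0390. So 2 of the 7 tubulin genes were called higher, where 14.3% of the 22746 probe sets tested were, and 2 were called lower, where 17.6% were. With 7 genes, counts this small are not read as particular to the family. TUA1 (0.19, 95% interval -0.02 to 0.40), TUB1 (0.17, -0.06 to 0.39) and TUB6 (0.10, -0.06 to 0.26) did not pass the test. The arrays of xrn3-8 and Col-0 did not overlap for 6 of the 7 genes, TUB1 being the exception, and for 44.1% of all probe sets tested. Relative to the distribution of all probe sets, TUA6 lay at the percentile 95.3 and TUB9, the lowest of the 7, at 17.9. The median of the 7 was 0.17, against -0.01 for all probe sets tested.

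These calls were not equally firm. TUA6 and TUB5 kept theirs without any 1 of the 12 arrays. Without replicate 1 or 2 of untreated xrn3-8, or replicate 1 or 2 of untreated Col-0, both TUB7 and TUB9 missed the threshold, with differences of -0.24 to -0.18 for TUB7, adjusted p 0.0541 to 0.140, and -0.26 to -0.24 for TUB9, adjusted p 0.0946 to 0.126, in limma. Both calls were also lost, without a change of sign, when the arrays were centred on their medians, on Bacillus subtilis control probe sets or on hybridization controls, and the last of these also ended the call of TUB5. Quantile normalization ended that of TUB7 (-0.20, limma adjusted p = 0.0533).

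The same comparison after cordycepin used the other 6 arrays, though both rest on 1 estimate of the spread. TUA6 (0.34 ± 0.07, limma adjusted p = 0.00176) and TUB5 (0.37 ± 0.08, adjusted p = 0.00179) were again higher in xrn3-8, and TUB7 (-0.25 ± 0.08, adjusted p = 0.0229) and TUB9 (-0.37 ± 0.09, adjusted p = 0.00501) were again lower. TUB6 was 1.31-fold higher in xrn3-8, with means of 9.63 ± 0.07 in xrn3-8 and 9.24 ± 0.07 in Col-0 (SD, n = 3 each), a log2 difference of 0.39 ± 0.07 (limma adjusted p = 0.000723). In all, 3 of the 7 were called higher, against 16.6% of all probe sets tested, and 2 were called lower, against 15.6%. TUA1 (0.10, 95% interval -0.11 to 0.31) and TUB1 (-0.01, -0.24 to 0.21) did not pass. The groups did not overlap for 5 of the 7, the same 5 that were called, and for 40.3% of all probe sets. The median of the 7 was 0.10, against 0.02 for all. TUB7 missed the threshold without replicate 1 or 2 of treated xrn3-8 or replicate 1 or 2 of treated Col-0 (-0.25 to -0.23, limma adjusted p 0.0512 to 0.0721). Centring on hybridization controls left TUB9 as the 1 call, with no sign turned among the 5. With centring on the Bacillus subtilis probe sets over a log2 signal of 4, TUA6 (0.20, limma adjusted p = 0.123) and TUB5 (0.23, 0.0660) lost their calls.

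Across the 2 times, 4 tubulin genes of 7 were called in the same direction in both genotype comparisons, against 18.8% of all probe sets. On the deposited scale 6 of the 7 had the same sign in both, against 68.9% of all. The exception was TUB1, which was at -0.01 after cordycepin and at 0.01 there with median centring. Of the measured tissue markers, LHCB4.2, RCA and PYK10 were called between genotypes, each of them only after cordycepin. LHCB4.2, a light-harvesting protein gene of green tissue, was higher by 0.76 ± 0.10 in xrn3-8 after cordycepin (limma adjusted p = 1.10e-05) and differed by 0.17 ± 0.10 before it (adjusted p = 0.212). The root gene PYK10, which encodes a beta-glucosidase, was lower by -0.44 ± 0.09 after cordycepin (adjusted p = 0.00112) and differed by 0.07 ± 0.09 before it (adjusted p = 0.628). The green tissue gene RCA was higher by 0.22 ± 0.07 after cordycepin (limma adjusted p = 0.032) and differed by 0.19 ± 0.07 before it (0.059). EXPA7, AGL104 and AGL65 were called at neither time. The part of tissue make-up in the tubulin differences was not tested.

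To set the tubulin genes against each other without the scaling of the arrays, the mean of the 7 on each array was subtracted from every probe set and the fit repeated, a step added after the values were known. The 7 values of a comparison then sum to 0, so that some lie above and some below 0 is fixed by the step. The values say only that the genes differed unequally, and not that any of them rose or fell. Before cordycepin, TUA6 (0.42 ± 0.09, limma adjusted p = 0.000883) and TUB5 (0.24 ± 0.08, adjusted p = 0.0249) were higher in xrn3-8 relative to the tubulin mean. TUB7 (-0.36 ± 0.08, adjusted p = 0.00302) and TUB9 (-0.39 ± 0.09, adjusted p = 0.00216) were lower. After cordycepin the values were 0.26 ± 0.09 for TUA6 (adjusted p = 0.0263), 0.29 ± 0.08 for TUB5 (0.0103), -0.33 ± 0.08 for TUB7 (0.00594) and -0.45 ± 0.09 for TUB9 (0.000614), all from limma. TUB6 was at -0.02 ± 0.09 before cordycepin (adjusted p = 0.859) and 0.31 ± 0.09 after it (adjusted p = 0.0110). A single array decided some of these calls. TUB5 before cordycepin missed the threshold without replicate 1 or 3 of untreated xrn3-8 or replicate 1 of untreated Col-0, at 0.21 to 0.25. TUA6 after cordycepin missed it without replicate 3 of treated xrn3-8 or replicate 1 or 2 of treated Col-0, at 0.21 to 0.26.

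**Figure D2:**
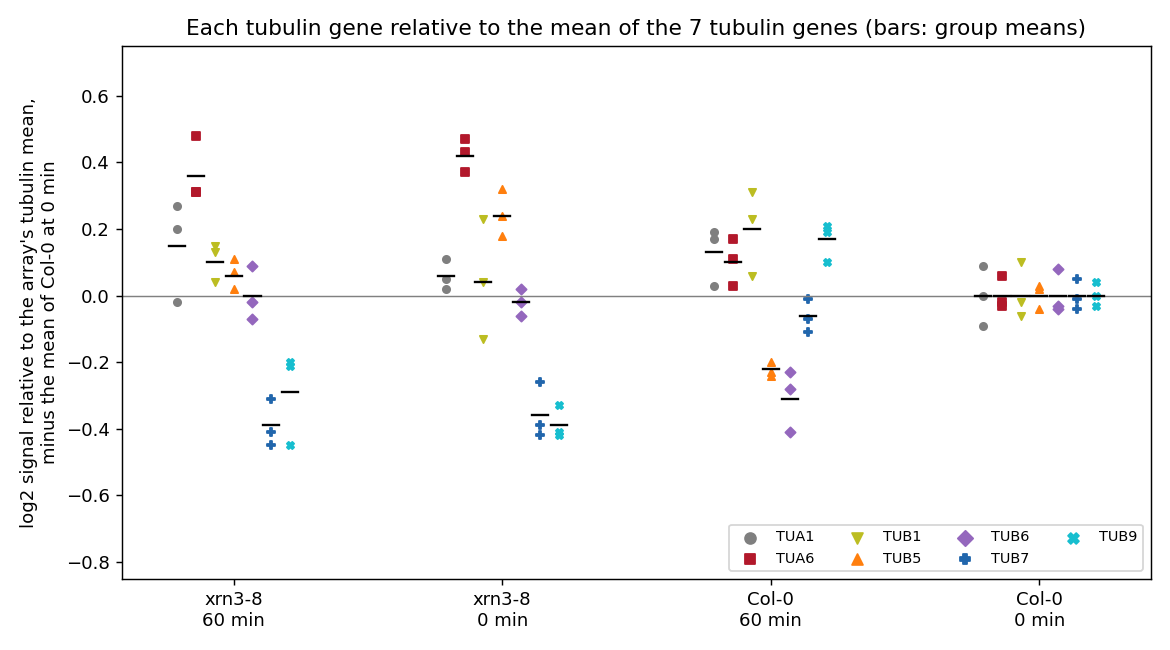
Log2 signal of each of the 7 tubulin genes relative to the mean of the 7 on the same array, with the mean of that value in Col-0 at 0 min subtracted. Points are arrays and short bars are means of 3 arrays. TUB7 and TUB9 lie below the line in xrn3-8 at both times, and TUA6 lies above it on all 6 xrn3-8 arrays. Treated Col-0 arrays also lie above the line for TUA6 and below it for TUB7, but nearer to it. Values on both sides of the line follow from the subtraction.

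The comparison over time asked what happened to tubulin transcripts during 60 min of cordycepin. On the deposited scale most tubulin signals were higher at 60 min than at 0 min in both genotypes, but under other scalings of the arrays several had the opposite sign, as given below. In xrn3-8, all 7 were called higher, against 24.5% of all probe sets tested, and 0 lower, against 15.9%. In Col-0, 6 of the 7 were called higher, against 26.3% of all, and 0 lower, against 20.1%. These comparisons use the same arrays as those between genotypes. The median of the 7 was 0.41 in xrn3-8, against 0.09 for all probe sets, and 0.53 in Col-0, against 0.07 for all.

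TUB9 was higher after cordycepin by 0.49 ± 0.09 in xrn3-8 (limma adjusted p = 0.000558) and by 0.60 ± 0.09 in Col-0 (adjusted p = 5.82e-05). TUA1 was higher by 0.48 ± 0.10 in xrn3-8 (adjusted p = 0.00112) and by 0.56 ± 0.10 in Col-0 (adjusted p = 0.000188), and TUB1 by 0.45 ± 0.10 (0.00285) and 0.63 ± 0.10 (0.000119). TUA6 was higher by 0.33 ± 0.07 in xrn3-8 (0.00206) and 0.53 ± 0.07 in Col-0 (1.89e-05), and TUB7 by 0.35 ± 0.08 (0.00185) and 0.37 ± 0.08 (0.000943). TUB5 had the smallest called difference, 0.21 ± 0.08 in each genotype, with limma adjusted p-values of 0.0496 in xrn3-8 and 0.0442 in Col-0. Its call was lost without 1 array in 9 of 12 cases in xrn3-8 and in 6 of 12 in Col-0, at 0.16 to 0.25. TUB6 was higher by 0.41 ± 0.07 in xrn3-8 (adjusted p = 0.000414), while in Col-0 it differed by 0.12 ± 0.07 and did not pass (95% interval -0.04 to 0.28, adjusted p = 0.195). The 60 min and 0 min arrays overlapped for none of the 7 genes in either genotype, while 49.2% of all probe sets in xrn3-8 and 53.7% in Col-0 did not overlap. Tissue markers moved over the same time. LHCB4.2 was lower by -0.67 in xrn3-8 and -1.27 in Col-0, and the pollen marker AGL65 by -0.36 and -0.43, all called. PYK10 was lower by -0.45 in xrn3-8 and EXPA7 higher by 0.47 in Col-0, while PYK10 in Col-0 (0.06), EXPA7 in xrn3-8 (0.00), and RCA and AGL104 in both did not pass. Their part in the tubulin differences was not tested.

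**Figure D3:**
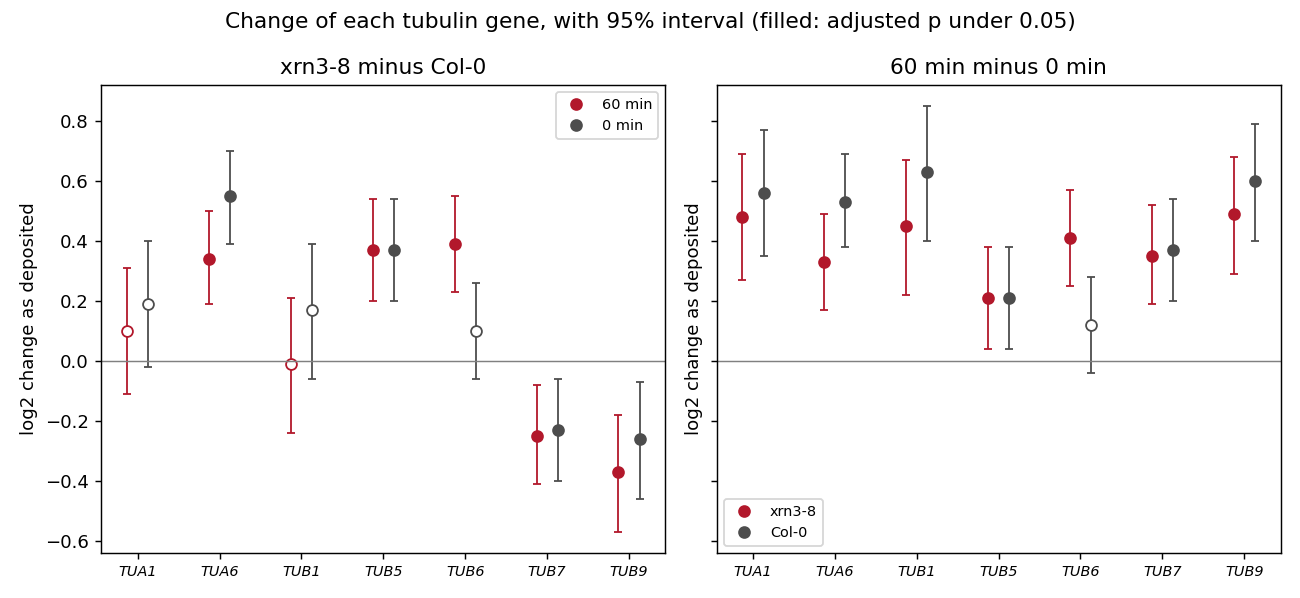
Log2 difference of each tubulin gene on the deposited scale, xrn3-8 minus Col-0 at 60 and 0 min (left panel) and 60 min minus 0 min in xrn3-8 and Col-0 (right panel). Points are limma estimates from 3 arrays a group, whiskers are 95% intervals, and filled points passed at an adjusted p under 0.05; on this scale only the differences over time are above 0 for all 7 genes, a direction that other scalings turn for several of them.

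The direction over time depends on what is held constant between arrays. This held for all 7 tubulin genes in xrn3-8, but only for TUB5, TUB6 and TUB7 in Col-0. The array's Bacillus subtilis control probe sets, 27 in number, averaged 4.17 in xrn3-8 at 60 min and 3.68 at 0 min, and 4.07 in Col-0 at 60 min and 3.74 at 0 min. Whether and when such control RNA was added is not stated in the labels. Centring on these controls moved the median difference of all probe sets to -0.39 in xrn3-8 and -0.25 in Col-0, and that of the 7 tubulin genes to -0.08 and 0.21. On that scale 0 tubulin genes were called higher and 1 lower in xrn3-8, where TUB5 was at -0.28, against 1.04% and 75.8% of all probe sets. In Col-0, 3 were called higher and 1 lower, where TUB6 was at -0.20, against 5.95% and 50.8% of all. Centring on 3 reference genes (GAPC2, TIP41L and MON1, of 11 listed) gave 0 calls in xrn3-8 with a median of 0.06. The shares of the whole array there were 2.82% higher and 53.6% lower. In Col-0, centring on these 3 genes gave 4 higher and 1 lower with a median of 0.21, against 6.09% and 52% of all. These 3 did not move alike on the deposited scale, where TIP41L (0.61 in xrn3-8 and 0.52 in Col-0) and MON1 (0.33 and 0.42) were called higher over time and GAPC2 (0.11 and 0.03) was not called. With the 18 hybridization control probe sets, 0 were called in xrn3-8 (median 0.14), against 1.80% of all probe sets higher and 23.9% lower. In Col-0, 2 tubulin genes were called higher and 0 lower (median 0.34), against 5.74% and 23.9% of all. With only the 12 Bacillus subtilis probe sets over a log2 signal of 4, all 7 tubulin genes were below 0 in xrn3-8. They lay at -0.48 to -0.20, with 4 called lower. Of all probe sets, 92.8% were called lower there, and their median was -0.60. In Col-0 on that scale 0 tubulin genes were called higher and 2 lower, against 2.55% and 69.1% of all probe sets, whose median was -0.39. TUA1 (0.10), TUA6 (0.07), TUB1 (0.17) and TUB9 (0.14) stayed above 0, and none of them was called.

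What did not turn was the position of the tubulin genes among all transcripts. Under each of the 7 scalings and in both genotypes, every tubulin gene lay above the median of all probe sets, which for the centrings follows from their construction, since they move all probe sets of an array alike. On the deposited scale the 7 lay at percentiles 69.2 to 94.2 of all probe sets in xrn3-8 and 58.1 to 95.9 in Col-0. In xrn3-8 TUB5 was the lowest and TUB9 the highest, and in Col-0 TUB6 was the lowest and TUB1 the highest. Relative to the tubulin mean, TUB6 (-0.31 ± 0.09, limma adjusted p = 0.00464) and TUB5 (-0.22 ± 0.08, adjusted p = 0.0203) were lower at 60 min than at 0 min in Col-0. In xrn3-8 the same values were 0.02 ± 0.09 for TUB6 (adjusted p = 0.849) and -0.18 ± 0.08 for TUB5 (adjusted p = 0.0628).

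**Figure D4:**
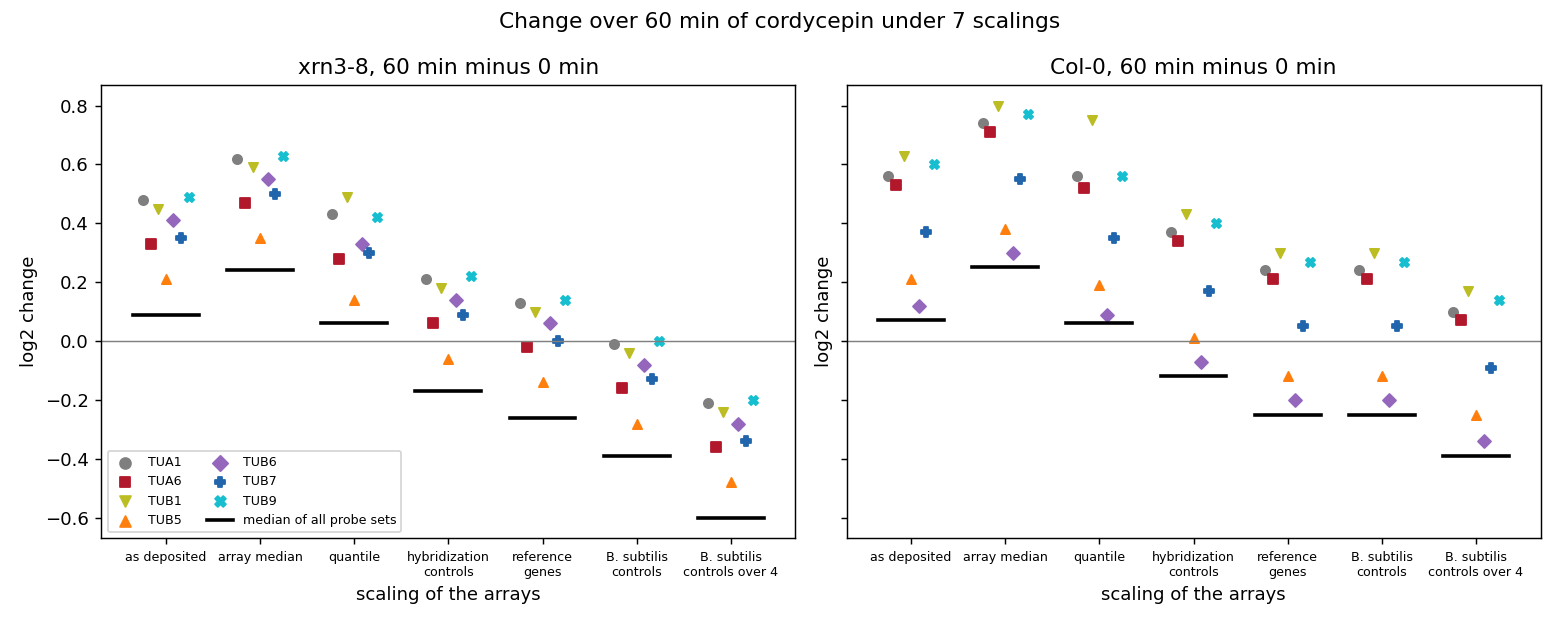
Log2 difference between 60 and 0 min of each of the 7 tubulin genes in xrn3-8 (left panel) and Col-0 (right panel) under 7 scalings of the arrays. Symbols are genes and the black bar is the median of all 22746 probe sets, which lies from 0.24 down to -0.60 in xrn3-8; each tubulin gene stays above the bar, while several of them cross 0.

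The interaction, the change over time in xrn3-8 minus that in Col-0, asked whether the mutation alters the response. It called 0 tubulin genes higher, against 5.08% of all probe sets tested, and 0 lower, against 2.97%. TUB6 had the largest value, 0.28 ± 0.11 (95% interval 0.06 to 0.51, limma adjusted p = 0.120, unadjusted p = 0.0165), and was the 1 gene of the 7 with an unadjusted p under 0.05. With a prior variance that depends on the signal, it passed at an adjusted p of 0.0488. TUA6 was at -0.20 (-0.43 to 0.02, adjusted p = 0.286), and passed only with centring on the Bacillus subtilis probe sets over 4, at -0.43 with an adjusted p of 0.0439. The other 5 lay between -0.18 and 0.00, and the widest of their intervals, that of TUB1, reached from -0.49 to 0.13.

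Over the 12 arrays some pairs of tubulin genes were closer in pattern than others, without forming separate groups. TUB7 and TUB9 had a Pearson r of 0.93, TUA6 and TUB5 of 0.92, TUA1 and TUB1 of 0.86, and TUB6 had 0.84 with both TUA6 and TUB5. TUB5 had -0.05 with TUB7 and 0.02 with TUB9. TUA1 had 0.77 with TUA6 and 0.71 with TUB9, and TUB1 had 0.74 with TUA6 and 0.72 with TUB9. These are descriptions over arrays that share 4 groups, so they mostly restate the group means. Among 13349 other genes, the closest to TUB9 were AT4G34660 (r = 0.992), SEC6, which encodes a subunit of the exocyst complex of secretion (0.987), and AT2G34250 (0.986). The closest to TUB7 were AT5G35580 (0.979), PSD, which encodes a tRNA export receptor (0.978), and AT3G03020 (0.976). For TUA6 they were AT1G14820 (0.985), AT4G16155 (0.983) and AT5G41760 (0.983), and for TUB5 AT3G62110 (0.982), AT5G22580 (0.980) and AT2G29180 (0.973). The closest to TUB6 were CPNIFS, which encodes a cysteine desulfurase of the chloroplast (0.966), AT5G24690 (0.962) and AT5G44010 (0.955). TUA1 was closest to AT3G25120 (0.968), AT3G48140 (0.965) and AT3G18760 (0.964), and TUB1 to AT3G28700 (0.967), the expansin gene EXPA16 (0.964) and AT3G51100 (0.961).

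Other genes of the microtubule system were measured sparsely. Of 32 listed microtubule-associated proteins, 4 were measured. On the deposited scale 3 of the 4 were called higher after cordycepin in xrn3-8, against 24.5% of all probe sets tested. In Col-0 all 4 were, against 26.3%. With 4 genes, these counts are not read as particular to the microtubule system. WDL2, of a family that affects organ twisting, was higher by 0.61 ± 0.11 in xrn3-8 (limma adjusted p = 0.000463) and 0.69 ± 0.11 in Col-0 (0.000103), its relative WDL3 by 0.46 ± 0.09 (0.000617) and 0.52 ± 0.09 (0.000154), and SPR1, a plus-end protein needed for straight growth, by 0.36 ± 0.09 (0.00394) and 0.56 ± 0.09 (6.19e-05). MAP65-6, of the family that bundles microtubules, was higher by 0.27 ± 0.10 in Col-0 (0.0347) and differed by 0.14 ± 0.10 in xrn3-8 (0.284). Between genotypes MAP65-6 was lower in xrn3-8 by -0.42 ± 0.10 before cordycepin (limma adjusted p = 0.00419) and -0.55 ± 0.10 after it (0.000435), and SPR1 was higher by 0.24 ± 0.09 before it (0.0431). None of the 4 was called in the interaction.

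Tubulin is folded by cofactors, of which 2 of 12 listed with prefoldin were measured. TFCE was higher after cordycepin by 0.56 ± 0.10 in xrn3-8 (limma adjusted p = 0.000268) and 0.31 ± 0.10 in Col-0 (0.0144). TFCC differed by -0.12 ± 0.11 in xrn3-8 (0.408) and was lower by -0.59 ± 0.11 in Col-0 (0.000362), with an interaction of 0.47 ± 0.16 that did not pass (0.0814). Neither was called between genotypes. Of 8 listed genes of gamma-tubulin and its complex, which nucleate microtubules, GCP2 alone was measured, and it passed in none of the 5 comparisons, with 0.17 ± 0.09 over time in xrn3-8 and 0.18 ± 0.09 in Col-0. COB, which is needed for oriented cellulose deposition and was the 1 measured of 12 listed cellulose synthesis genes, was higher after cordycepin by 0.37 ± 0.09 in xrn3-8 (0.00258) and 0.64 ± 0.09 in Col-0 (1.22e-05). Of 8 actin genes, ACT11 passed in none of the 5 comparisons, and ACT12 was higher over time in both genotypes (0.27 and 0.29) at 2.37 to 2.91, below the lower quartile of the arrays. Like those of the tubulin genes, these directions over time hold for the deposited scale.

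In the gene order of the reference assembly, 6 of the genes beside a tubulin gene were measured, none of them beside TUA6 or TUB5. Before cordycepin 1 of the 6 was called between genotypes, AT1G75770 beside TUB1 (0.29 ± 0.09, limma adjusted p = 0.0195), whose mean of 2.91 in Col-0 was under the arrays' lower quartile. Of all probe sets tested, 14.3% were called higher and 17.6% lower in that comparison, so the count is not read as particular to these neighbours. Beside TUB7 and TUB9, both lower in xrn3-8, the enolase gene ENOC differed by 0.08 ± 0.09 (0.552) and AT4G20880 by -0.15 ± 0.09 (0.251).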

How the data were processed

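Expression was measured on 12 1-colour Affymetrix arrays. The authors deposited 1 log2 signal for each probe set on each array, already normalized between arrays, with affy 1.48.0 and limma 3.26.9 per the submitters' processing notes. How background, normalization and summary were done is not given in these sources. The number of arrays limits the precision, and log2 differences had a median SE of 0.0960. Of 22810 probe sets, 64 controls were left out of the tests. The probe annotation gives 1 gene for 13513, several for 503 and lists no gene for 8730, and 13436 of the 13513 matched the reference table (assembly TAIR10.1), used only for names and gene order.

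With limma 3.58.1 under R 4.3.3, the 4 group means were fitted for 22746 probe sets (lmFit, then eBayes with 7.964 prior beside 8 residual degrees of freedom; no pseudocount), and 5 contrasts were tested, two-sided. Benjamini-Hochberg adjustment of p-values ran over all probe sets of a contrast, with calls made below 0.05. The fit was tested on simulated data. All 7 tubulin genes are named, with the 3 genes of highest Pearson r for each whose group means span at least 0.5, the measured markers, and up to 4 called members of each list. Members and lists were chosen with earlier results of these data known. Alternatives covered scaling, prior variance, array weights, filters, thresholds, the replicate number as a block and leaving out each array.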

Additional observations from a re-analysis of the deposited data

Results flagged for a closer look

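The control probe set for 25S ribosomal RNA, which is outside the expression measurement, gave a mean log2 signal of 8.54 ± 0.76 in xrn3-8 after cordycepin and 6.14 ± 0.16 in Col-0 after cordycepin (SD, n = 3 each), a difference of 2.40. Before cordycepin it gave 6.01 ± 0.31 in xrn3-8 and 5.83 ± 0.30 in Col-0. It drew attention because it is a control with a signal in 1 group well above the level in the other 3. Of the tubulin genes, TUA6, TUB5 and TUB6 also read higher on each array of xrn3-8 after cordycepin than on every other array. The share of all probe sets with this pattern is not given here, so it is not read as particular to these genes. The part of the ribosomal signal in the tubulin values was not tested.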

How the results depend on the processing

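Scaling decided the calls over time in both genotypes, but in Col-0 it turned the sign of only TUB5, TUB6 and TUB7. In xrn3-8 the 7 calls became 1 with Bacillus subtilis control centring (TUA1 -0.01, TUA6 -0.16, TUB1 -0.04, TUB5 -0.28, TUB6 -0.08, TUB7 -0.13), 0 with hybridization control centring (TUB5 -0.06), 0 with reference gene centring (TUA6 -0.02, TUB5 -0.14), and 4, all lower, with the control probe sets over 4, a setting added after seeing the data (TUA1 -0.21, TUA6 -0.36, TUB1 -0.24, TUB5 -0.48, TUB6 -0.28, TUB7 -0.34, TUB9 -0.20). In Col-0 the 6 calls became 2 with hybridization control centring (TUB6 -0.07) and 2, both lower, with the control probe sets over 4 (TUB5 -0.25, TUB6 -0.34, TUB7 -0.09), while TUB5 was at -0.12 and TUB6 at -0.20 with both Bacillus subtilis and reference gene centring. Before cordycepin, the 4 genotype calls became 2 with median centring, Bacillus subtilis centring, the control probe sets over 4 and an adjusted p under 0.01. They became 1 with hybridization controls and 3 with quantile normalization. Of all probe sets, 18.4% were then called higher and 13.8% lower with median centring, and 17.4% and 13% with Bacillus subtilis centring. The shares were 17.5% and 11% with the control probe sets over 4. With hybridization controls they were 8.23% and 11.2%, and with quantile normalization 15.7% and 15.5%. After cordycepin, the 5 became 1 with hybridization controls and 3 with the control probe sets over 4, without TUA6 and TUB5. There TUB1 changed sign with median centring (0.01), and TUA1 with Bacillus subtilis centring (0.00 after rounding) and the control probe sets over 4 (-0.04). At 1.5-fold or more, 0 genes remained called between genotypes at either time and 0 over time in xrn3-8, but 2 over time in Col-0. The interaction gave 1 call with a signal-dependent prior variance and 1 with the control probe sets over 4, and its TUB5 value was 0.01 with array weights. Leaving out each array gave 2 to 4 genotype calls before cordycepin and 4 to 5 after it, 6 to 7 over time in xrn3-8, 5 to 6 in Col-0 and 0 for the interaction. Near 0, TUB1 after cordycepin ranged from -0.12 to 0.08, and the interaction from -0.16 to 0.00 for TUA1, -0.04 to 0.05 for TUB5 and -0.06 to 0.04 for TUB7. The signs of TUA6, TUB5, TUB7 and TUB9 between genotypes reversed under no alternative run. With the replicate number as a block the counts of calls were 4, 5, 6, 7 and 0, as without it. The deviations of same-numbered arrays correlated at -0.09 to 0.18, over 0.1 in 4 of 18 pairs of groups, so the numbers were not taken as pairs. Each gene has 1 probe set, so the planned use of another was not run, and the fit on the compared groups alone has no value for the interaction. Except where an alternative's construction shows it, the cause was not tested.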
